A study of Mus musculus with 12 samples.

Results

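The 5 genes described here, 2210010C17Rik, Cldn4, Lrig1, Gtf2ird1 and Scn4b, were selected from the 23234 genes of the table on measured values. They showed the largest decreases in Bcl11bm/m thymocytes relative to wild-type on the log2(FPKM + 1) scale, with every mutant value below every wild-type value. RNA-seq covered 12 libraries of CD24hiTCRβlo CD4+CD8+ thymocytes, which have not yet undergone positive selection, sorted from mice on a C57BL/6 background. Of these, 5 came from wild-type newborns, 3 from newborn Bcl11bm/m mice, and 4 from Bcl11bfl/fl:Cd4-Cre mice, whose age the labels do not give. The Bcl11bm allele carries a frameshift, its product lacks the last zinc finger of Bcl11b, and homozygous pups die as neonates, whereas Cd4-Cre removes a floxed Bcl11b gene only once thymocytes reach the CD4+CD8+ stage. Age and genotype therefore cannot be told apart in the comparisons that involve Bcl11bfl/fl:Cd4-Cre mice. Genotypes were read from the sample titles and the design text, because the free-text description gives another genotype for the wild-type and the conditional group.

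Bcl11b is a zinc finger transcription factor that is required for commitment of thymocytes to the T lineage and acts again at the CD4+CD8+ stage, where cells are tested for T cell receptors that recognise self-MHC. At that checkpoint weak receptor signals are converted into a sustained calcium response, and a voltage-gated sodium channel that includes the regulatory subunit Scn4b is known to sustain calcium entry in CD4+CD8+ cells during positive selection of CD4+ T cells. Cldn4, best known as a tight junction protein of epithelia, is induced by E proteins in late CD4+CD8+ thymocytes and has been linked to the efficiency of positive selection. Lrig1 is a transmembrane protein with leucine-rich repeats that restrains ErbB family receptor tyrosine kinases, Gtf2ird1 is a DNA-binding protein of the TFII-I family, and 2210010C17Rik is listed by RefSeq as Igsf23, an immunoglobulin superfamily gene.

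The label check used Bcl11b and Zbtb7b, the latter encoding Thpok, the CD4-lineage transcription factor that is silent before selection. Zbtb7b was between 0 and 0.215 FPKM in wild-type, 41.1 to 50.4 in Bcl11bm/m and 9.44 to 56.6 in the Bcl11bfl/fl:Cd4-Cre group, so both mutants stood apart from wild-type. Bcl11b itself ranged from 132 to 292 FPKM in wild-type, 430 to 482 in Bcl11bm/m and 115 to 140 in the Bcl11bfl/fl:Cd4-Cre libraries, values that cover the whole gene and show neither its reading frame nor the loss of a floxed segment. Estimated depth was 3940000 to 12090000 fragments in wild-type, 2720000 to 4220000 in Bcl11bm/m and 13410000 to 45420000 in the Bcl11bfl/fl:Cd4-Cre libraries. Over all genes the median difference from wild-type was -0.02 in Bcl11bm/m and -0.09 in Bcl11bfl/fl:Cd4-Cre on the log2(FPKM + 1) scale. The labels do not say how many mice went into a library, and p-values measure the spread between these libraries only.

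The 5 genes lie on chromosomes 5, 6, 7 and 9 and are all annotated as protein coding. On NCBIM37, 2210010C17Rik spans chr7:20522654-20536092 on the minus strand, Lrig1 spans chr6:94554523-94650152 on the minus strand, and Scn4b spans chr9:44946520-44962235 on the plus strand. Gtf2ird1 at chr5:134833539-134932581 and Cldn4 at chr5:135420996-135422804, both on the minus strand, are 488 kb apart with 9 other genes of the table between them, in the block that corresponds to the human Williams-Beuren region. Since all 5 genes share a loss in Bcl11bm/m cells, the 250 bases upstream of each start were taken from RefSeq (windows were found for all 5, and for Scn2b, the neighbour of Scn4b) and searched for the E-box CANNTG, the letters recognised by E proteins, and for the Runx letters ACCACA or ACCGCA, on both strands. Matches are printed in capitals, 5′ to 3′ on the gene's strand, and bases inside the annotated gene are not printed, which leaves 237 of the 250 bases for Lrig1 (chr6:94650153-94650389) and 63 for Scn4b (chr9:44946457-44946519). The other windows are chr7:20536093-20536342 for 2210010C17Rik, chr5:135422805-135423054 for Cldn4, chr5:134932587-134932836 for Gtf2ird1 and chr9:44925709-44925958 for Scn2b.
2210010C17Rik: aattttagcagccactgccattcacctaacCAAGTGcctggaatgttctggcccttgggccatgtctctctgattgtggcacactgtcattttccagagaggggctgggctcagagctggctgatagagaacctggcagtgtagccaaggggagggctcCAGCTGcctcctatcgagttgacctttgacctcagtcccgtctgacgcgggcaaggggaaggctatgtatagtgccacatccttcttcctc
Cldn4: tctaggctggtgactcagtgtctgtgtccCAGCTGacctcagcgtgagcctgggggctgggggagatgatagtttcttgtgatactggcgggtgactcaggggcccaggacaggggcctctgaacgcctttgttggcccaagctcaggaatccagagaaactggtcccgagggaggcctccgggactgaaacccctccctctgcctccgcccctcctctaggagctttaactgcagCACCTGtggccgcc
Lrig1: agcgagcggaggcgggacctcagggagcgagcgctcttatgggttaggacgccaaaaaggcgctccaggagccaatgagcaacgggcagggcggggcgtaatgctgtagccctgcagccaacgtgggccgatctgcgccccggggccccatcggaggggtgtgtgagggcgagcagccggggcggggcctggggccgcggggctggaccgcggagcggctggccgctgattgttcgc
Gtf2ird1: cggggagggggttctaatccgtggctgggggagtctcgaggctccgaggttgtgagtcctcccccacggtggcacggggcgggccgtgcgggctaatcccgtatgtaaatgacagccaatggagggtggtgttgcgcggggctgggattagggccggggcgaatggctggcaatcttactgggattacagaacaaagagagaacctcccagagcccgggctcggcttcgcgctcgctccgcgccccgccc
Scn4b: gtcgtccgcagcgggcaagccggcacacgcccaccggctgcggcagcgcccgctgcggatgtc
Scn2b: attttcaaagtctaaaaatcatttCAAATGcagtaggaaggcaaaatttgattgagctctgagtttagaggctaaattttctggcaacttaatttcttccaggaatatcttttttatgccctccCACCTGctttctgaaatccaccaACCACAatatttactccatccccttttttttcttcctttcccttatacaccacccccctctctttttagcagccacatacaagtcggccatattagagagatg

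An E-box was matched 2 times upstream of Cldn4, as CAGCTG from base -221 to -216 and CACCTG from base -14 to -9 relative to the gene start, and 2 times upstream of 2210010C17Rik, as CAAGTG at -220 to -215 and CAGCTG at -91 to -86. The windows of Lrig1, Gtf2ird1 and Scn4b held no E-box, and none of the 5 held the Runx letters. Among 32815 promoter windows of the same length, 66.2% held an E-box and 18.6% the Runx letters, so the 2 of 5 windows with an E-box are no larger a share than that of all promoters. G or C made up 71.6% of the window of Lrig1, 66.0% for Gtf2ird1 and Scn4b, 62.0% for Cldn4 and 55.2% for 2210010C17Rik. These shares and the matches cover all 250 bases of each window, with those of Lrig1 and Scn4b that are not printed. For Scn4b, 187 of the 250 lie inside the annotated gene. Scn2b, with 38.4% G or C, held 2 E-boxes and 1 Runx match. A match of letters does not show binding, and no match says only that these letters are not in the window.

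Scn4b, the regulatory sodium channel subunit, was at the limit of detection in Bcl11bm/m libraries. Its FPKM was 7.71, 2.88, 3.35, 15.0 and 16.4 in wild-type replicates 1 to 5, and 0, 0.0599 and 0.117 in Bcl11bm/m replicates 1 to 3. All 3 mutant values lie below what 3 fragments would give at their estimated depth (0.233, 0.155 and 0.150 FPKM), so Scn4b was at or under the detection floor in Bcl11bm/m cells and no fold is given. Scn4b was at 4.42, 0.158, 0.0563 and 4.04 FPKM in the Bcl11bfl/fl:Cd4-Cre libraries, which means that replicates 1 and 4 lay within the wild-type range whereas replicates 2 and 3 lay below every wild-type library and near the Bcl11bm/m values. The floor in replicates 2 and 3 was 0.0291 and 0.0365 FPKM, so their values were above it. These floors cover counting error only.

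Cldn4 behaved differently in the mutants. Wild-type libraries had 14.2, 11.8, 7.94, 27.1 and 27.3 FPKM, and Bcl11bm/m libraries were listed at 0, 1.81 and 0.734 FPKM. The Bcl11bfl/fl:Cd4-Cre values of Cldn4 were 17.1, 9.50, 9.22 and 17.5 FPKM, a mean of 13.3 ± 4.61 (SD, n = 4) or 75.6% of the wild-type mean of 17.7 ± 9.0 (SD, n = 5). Every Bcl11bfl/fl:Cd4-Cre value lay inside the wild-type range, and every one was above the highest Bcl11bm/m value.

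Lrig1, the ErbB restraint, varied most among the wild-type libraries. Its values there were 13.6, 6.04, 7.05, 38.5 and 44.2 FPKM, whereas Bcl11bm/m libraries had 0.460, 0.864 and 1.04 FPKM, a mean of 0.788 ± 0.298 (SD, n = 3) or 3.61% of wild-type. Bcl11bfl/fl:Cd4-Cre libraries had 11.7, 8.09, 4.38 and 16.2 FPKM, and only replicate 3 fell below the lowest wild-type library. Lrig1 overlaps the end of Slc25a26 on the opposite strand, and the sources differ on whether the library kit kept the strand. Slc25a26, a mitochondrial carrier gene, had 2.61 FPKM in wild-type and 2.55 in Bcl11bm/m thymocytes on average, and the part of shared reads in either gene was not tested.

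Gtf2ird1 was the most evenly expressed of the 5 in wild-type, at 29.96, 31.5, 29.3, 36.6 and 37.7 FPKM. Bcl11bm/m libraries had 2.41, 2.15 and 3.73 FPKM, a mean of 2.76 ± 0.848 (SD, n = 3) or 8.38% of wild-type, which is the highest remaining share of the 3 genes with no listed 0. The Bcl11bfl/fl:Cd4-Cre values were 20.2, 30.04, 11.8 and 21.1 FPKM, and replicates 1, 3 and 4 were below every wild-type library whereas replicate 2 was at the level of the lower wild-type libraries.

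2210010C17Rik had 7.73, 15.2, 15.8, 26.1 and 23.9 FPKM in wild-type and 0.648, 0.429 and 0.837 FPKM in Bcl11bm/m libraries, a mean of 0.638 ± 0.204 (SD, n = 3) or 3.6% of wild-type. The first 2 of these lie at what 3 fragments would give (0.651 and 0.433 FPKM), so the remaining share is known only to within counting error of a few fragments. Bcl11bfl/fl:Cd4-Cre libraries had 4.39, 6.93, 1.14 and 8.61 FPKM, a mean of 5.27 ± 3.25 (SD, n = 4) or 29.7% of wild-type. Replicates 1, 2 and 3 lay below every wild-type library, and all 4 lay above every Bcl11bm/m library.

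**Figure D1:**
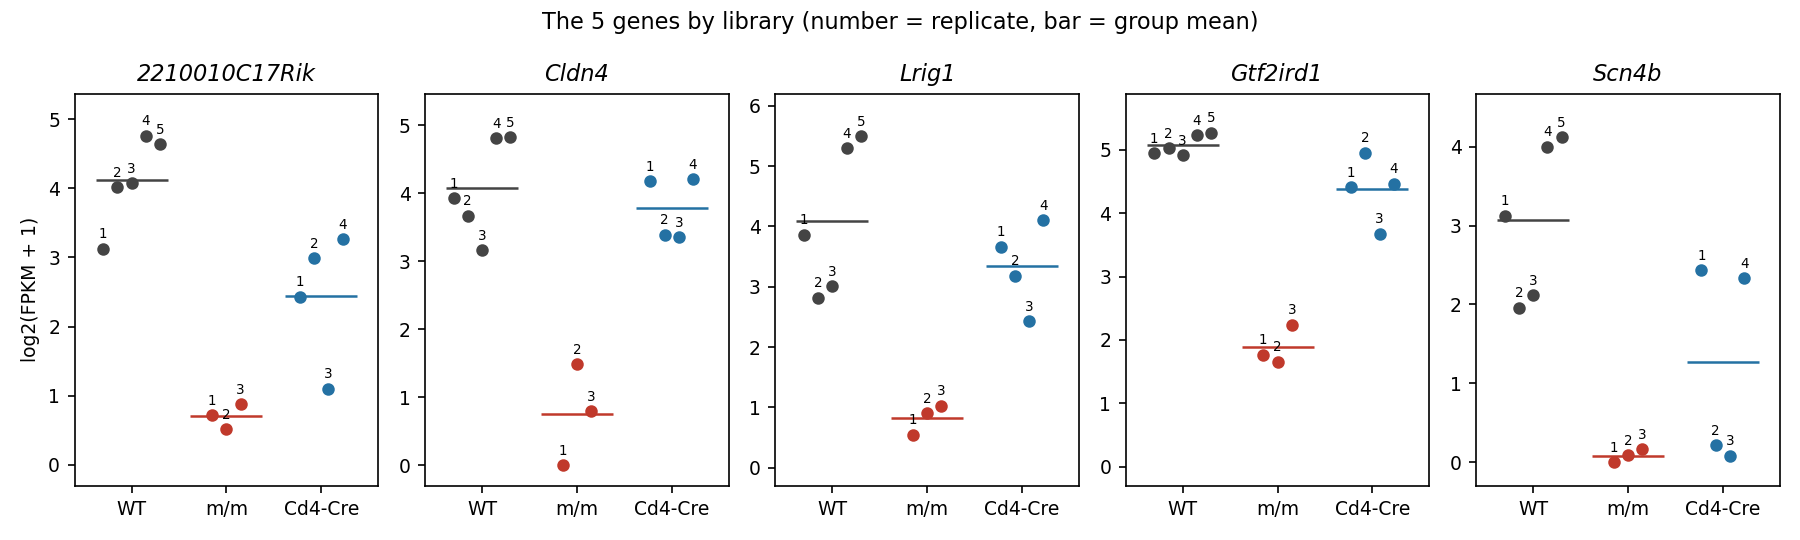
Level of each of the 5 genes on the log2(FPKM + 1) scale in every library, with the replicate number above each point and a bar at the mean of the group (5 wild-type, 3 Bcl11bm/m and 4 Bcl11bfl/fl:Cd4-Cre libraries). Bcl11bm/m libraries lie below all wild-type libraries for each gene, as the selection required, whereas Bcl11bfl/fl:Cd4-Cre libraries lie within the wild-type range for Cldn4, and replicates 2 and 3 are near 0 for Scn4b.

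In Bcl11bm/m against wild-type, the contrast that chose the genes, the log2(FPKM + 1) differences were -3.42 ± 0.35 (SE) for 2210010C17Rik, -3.32 ± 0.47 for Cldn4, -3.27 ± 0.65 for Lrig1, -3.19 ± 0.17 for Gtf2ird1 and -2.98 ± 0.52 for Scn4b. With Scn4b at the detection floor, its value depends on the pseudocount (-5.58 with 0.1) and is no measure of the fold. These values describe the selection and carry no test. Of all 10780 genes tested, 7.39% were lower and 9.92% higher at an adjusted p under 0.05, and 10.8% had every Bcl11bm/m library below every wild-type library. The 5 genes ranked next by the same rule were just outside, namely Unc5cl at -2.96, Card9 at -2.91, Cd52 at -2.86, Ldlrad3 at -2.82 and Gtf2h4 at -2.81, so no gap in size separates Scn4b from Unc5cl.

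In Bcl11bfl/fl:Cd4-Cre against wild-type, 1 of the 5 genes, 2210010C17Rik, was called lower. The share of all tested genes called lower in this comparison was 9.86%, and 4.65% were called higher. These tests use the same wild-type libraries as the selection, so they are not independent of it on that side. The 2210010C17Rik difference was -1.68 ± 0.45 (SE), with a limma adjusted p of 0.0359 and an exact permutation p of 0.0238 over the 126 possible splits, two-sided, where 0.00794 is the smallest p this design can give. Gtf2ird1 was -0.70 ± 0.22, with a limma adjusted p of 0.0588 and an exact permutation p of 0.0238. Scn4b had the most negative estimate at -1.80 ± 0.65, but its spread between replicates was wide and it did not pass (limma adjusted p = 0.0909, exact permutation p = 0.0794). Lrig1 at -0.75 ± 0.60 (limma adjusted p = 0.429, exact permutation p = 0.317) and Cldn4 at -0.29 ± 0.36 (limma adjusted p = 0.625, exact permutation p = 0.484) did not pass either. The permutation p-values are not adjusted for the 5 genes. For none of the 5 did all 4 Bcl11bfl/fl:Cd4-Cre libraries fall below every wild-type library, which 10.6% of all tested genes did. The 2210010C17Rik call was lost when wild-type replicate 2, 3, 4 or 5 or Bcl11bfl/fl:Cd4-Cre replicate 1 or 3 was left out (limma adjusted p = 0.0678 to 0.0974), and Gtf2ird1 was called without Bcl11bfl/fl:Cd4-Cre replicate 2 (-0.90, limma adjusted p = 0.0168).

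The mutants set side by side show the same order for all 5 genes in the means, Bcl11bm/m lowest and wild-type highest. Bcl11bm/m was lower than Bcl11bfl/fl:Cd4-Cre by 3.02 on the log2(FPKM + 1) scale for Cldn4, 2.52 for Lrig1, 2.49 for Gtf2ird1, 1.74 for 2210010C17Rik and 1.18 for Scn4b, the last again set by the floor. Every Bcl11bm/m library was below every Bcl11bfl/fl:Cd4-Cre library for 4 of the 5, the exception being Scn4b, and 7.76% of all tested genes showed this. The Bcl11bm/m values chose the genes, so nothing is read from that count.

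**Figure D2:**
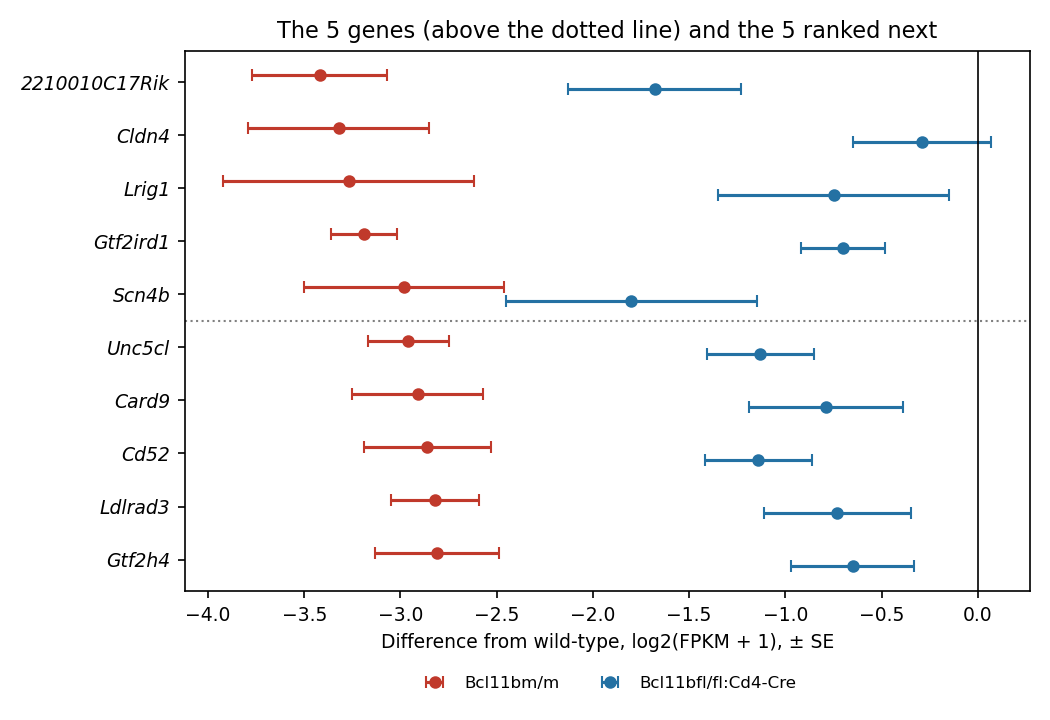
Difference from wild-type on the log2(FPKM + 1) scale with its SE, for Bcl11bm/m (red) and Bcl11bfl/fl:Cd4-Cre (blue), for the 5 genes and, below the dotted line, the 5 genes ranked next. The red points run from -3.42 to -2.81 without a gap, and the blue points lie nearer to 0, from -1.80 for Scn4b to -0.29 for Cldn4.

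The genes also varied within a group. Wild-type replicates 4 and 5 had the highest values of all 5 genes, and replicates 2 and 3 had the lowest of Lrig1, Scn4b and Cldn4. The mean of replicates 4 and 5 was 6.32 times that of replicates 2 and 3 for Lrig1, 5.05 times for Scn4b, 2.76 times for Cldn4, 1.61 times for 2210010C17Rik and 1.22 times for Gtf2ird1. Estimated depth was 6120000 and 3940000 fragments in replicates 2 and 3, and 4090000 and 12090000 in replicates 4 and 5. For Lrig1, Scn4b and Cldn4, replicates 2 and 3 were also the lowest of the Bcl11bfl/fl:Cd4-Cre libraries, which was not so for 2210010C17Rik and Gtf2ird1. Whether same-numbered libraries share a litter or batch was not tested. Among the Bcl11bfl/fl:Cd4-Cre libraries, replicate 3 had the lowest value of each of the 5 genes. The same replicate had the highest values of Zbtb7b (56.6 FPKM) and of Id2, an inhibitor of E proteins (99.0 FPKM, against 14.3 to 35.7 in the other 3). It was also lowest for Rag1 (438 FPKM, against 975 to 1300) and highest for the post-selection genes Klf2 (34.8, against 5.92 to 10.8), S1pr1 (3.76, against 0.772 to 1.14) and Il7r (8.96, against 1.45 to 4.08). Whether these differences had a part in the values of the 5 genes was not tested.

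Over the 9 libraries other than those of Bcl11bm/m mice, Cldn4 and Lrig1 were the most alike pair of the 5 (Pearson r = 0.94), followed by 2210010C17Rik and Gtf2ird1 (r = 0.92), Lrig1 and Scn4b (r = 0.86) and Cldn4 and Scn4b (r = 0.83), on log2(FPKM + 1). The other pairs lay between r = 0.42 for Cldn4 with Gtf2ird1 and r = 0.74. These libraries fall into 2 genotypes that also differ in depth and may differ in age, so the values are descriptive. The likeness over all 12 libraries includes the Bcl11bm/m contrast that chose the 5 genes, so it is listed as a description only, and for each of the 5, none of the 3 genes named was among its closest 3 over the 9 libraries. By this measure the genes with the closest pattern to Scn4b were Armcx6 (r = 0.94), Tmcc3 (0.93) and Rcbtb2 (0.92). For Cldn4 they were Slco3a1 (0.97), Ldhb (0.96) and Cdon (0.95), and for Lrig1 they were Gtf2h4 (0.97), Snai1 (0.95) and Nhsl1 (0.95). For Gtf2ird1 they were Hsdl1 (0.98), Slamf1 (0.98) and F13a1 (0.97), and for 2210010C17Rik they were Dgcr6 (0.99), Syngr1 (0.97) and Dhrs3 (0.97). Snai1, a zinc finger repressor, was listed at a mean of 2.83 FPKM in wild-type, 0.0584 in Bcl11bm/m and 1.44 in Bcl11bfl/fl:Cd4-Cre libraries.

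Scn2b and Scn4b are neighbours, 8.37 kb apart on the same strand, and 3 of the 6 nearest genes were compared with Scn4b library by library. Scn2b was 3.88, 1.72, 3.41, 5.77 and 6.58 FPKM in wild-type, 0.790, 0.794 and 0.751 in Bcl11bm/m, and 6.38, 0.726, 0.675 and 6.41 in Bcl11bfl/fl:Cd4-Cre libraries. Scn2b, which encodes another sodium channel beta subunit, fell by 1.48 ± 0.31 (SE) on the log2(FPKM + 1) scale in Bcl11bm/m (limma adjusted p = 0.0132), and differed by -0.48 in Bcl11bfl/fl:Cd4-Cre (limma adjusted p = 0.569). As for Scn4b, Bcl11bfl/fl:Cd4-Cre replicates 1 and 4 were at wild-type levels and replicates 2 and 3 at Bcl11bm/m levels. Il10ra, a subunit of the interleukin-10 receptor 99.7 kb from Scn4b on the other side, was 6.12, 1.16, 1.31 and 4.03 FPKM in the Bcl11bfl/fl:Cd4-Cre libraries, 3.20 to 5.30 in wild-type, and 0.368 to 1.11 in the Bcl11bm/m libraries. It fell by 1.59 in Bcl11bm/m (limma adjusted p = 9.09e-04) and was not called in Bcl11bfl/fl:Cd4-Cre (limma adjusted p = 0.382). Tmprss4, a transmembrane serine protease gene 18.6 kb from Scn4b, was too low to test but was listed at 0 in all 3 Bcl11bm/m libraries, against 0.392 to 1.77 FPKM in wild-type. Its Bcl11bfl/fl:Cd4-Cre values were 0.736, 0.0881, 0 and 0.570 FPKM in replicates 1 to 4. The likeness of these 3 neighbours was noticed after their values were seen. Of the other 3, Gm10684, the nearest at 2.83 kb, had means of 0.112 FPKM in wild-type and 0.140 in Bcl11bm/m, and Amica1 had 0.228 and 0.428, so neither mean was lower in Bcl11bm/m, and BC049352 was at 0.261 and listed at 0. The division of the Bcl11bfl/fl:Cd4-Cre replicates was also present far from Scn4b, with Ptcra, the pre-T cell receptor alpha gene, at 67.0, 27.0, 8.97 and 64.7 FPKM in replicates 1 to 4.

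**Figure D3:**
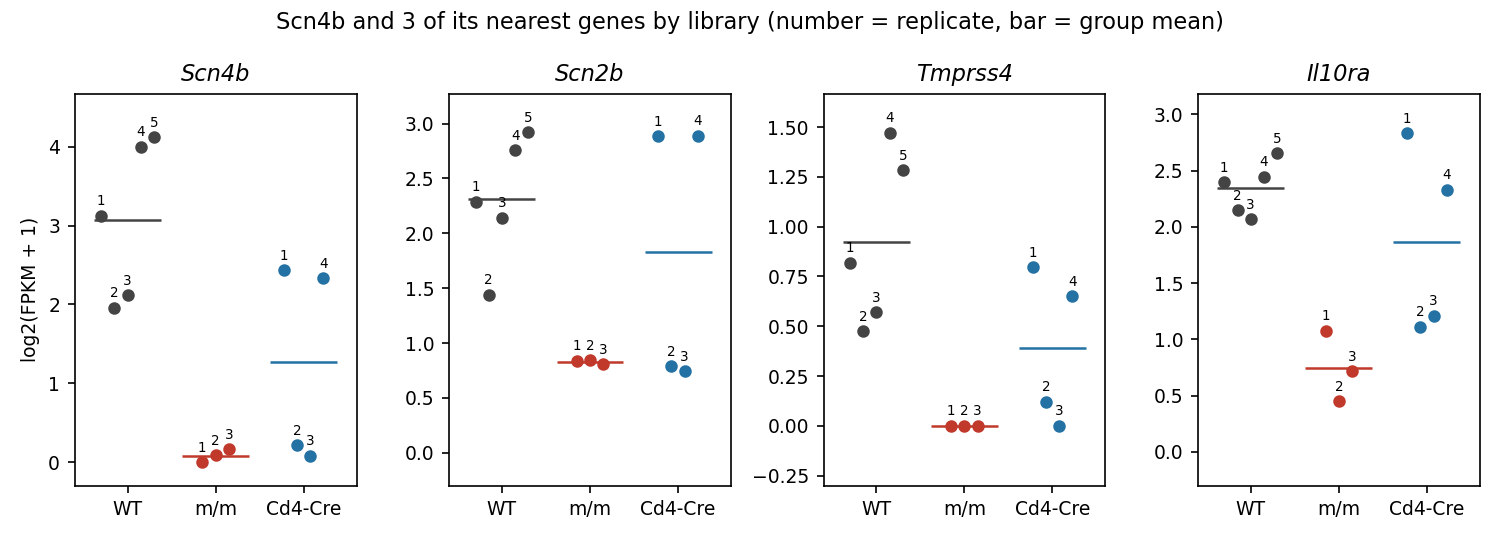
Level on the log2(FPKM + 1) scale of Scn4b and of 3 genes near it (Scn2b, Tmprss4 and Il10ra) in every library, with replicate numbers and group means as bars. For Bcl11bfl/fl:Cd4-Cre, replicates 1 and 4 are high and replicates 2 and 3 low for all 4 genes, a division that other genes of the table also show. In wild-type, replicates 2 and 3 are likewise the lowest for all 4 genes.

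Neighbours of all 5 genes were then counted. Of the 30 nearest genes (3 on each side of each of the 5), 15 were high enough to test, and 4 were lower and 1 higher in Bcl11bm/m, against 7.39% and 9.92% of all genes. Besides Scn2b and Il10ra, the lower ones were Pvr, the poliovirus receptor gene 16.1 kb from 2210010C17Rik (-1.86, limma adjusted p = 3.55e-04), and Abhd11, a hydrolase gene 62.2 kb from Cldn4 (-0.86, limma adjusted p = 0.0352). Pvr was 24.6 to 38.4 FPKM in wild-type, 6.40 to 9.23 in Bcl11bm/m and 11.3 to 26.3 in the Bcl11bfl/fl:Cd4-Cre libraries, again lowest in replicate 3 of the last group. None of the 3 tested neighbours of Lrig1 (Slc25a26, Kbtbd8 and Suclg2) was called in either mutant. With limma, 0 of the 15 were lower in Bcl11bfl/fl:Cd4-Cre (1 at an unadjusted p under 0.05) and 2 were higher, against 9.86% and 4.65% of all genes, namely Ceacam16 near 2210010C17Rik (limma adjusted p = 0.00464) and Gtf2ird2 near Gtf2ird1. The plot of neighbours by distance sets these values side by side.

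**Figure D4:**
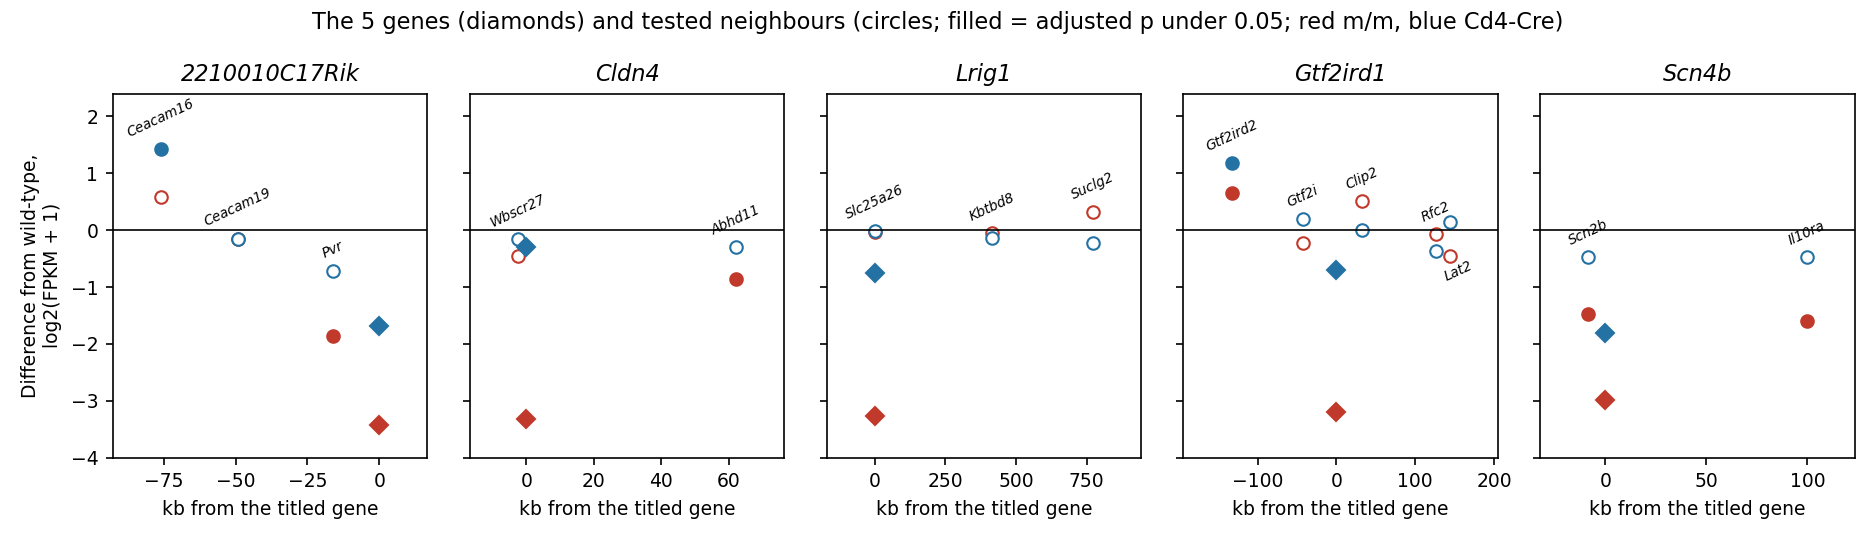
Difference from wild-type on the log2(FPKM + 1) scale (vertical axis) against the distance in kb from each of the 5 genes (horizontal axis), with the gene itself as a diamond at 0 and its tested neighbours as circles, filled where the adjusted p was under 0.05 (red Bcl11bm/m, blue Bcl11bfl/fl:Cd4-Cre). Scn2b, Il10ra, Pvr and Abhd11 are filled below 0 in Bcl11bm/m, and Gtf2ird2 is filled above 0 in both mutants.

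The other family members of Gtf2ird1 that could be tested were Gtf2i and Gtf2ird2. Gtf2i, which encodes TFII-I and lies 42.9 kb away, was 57.4 to 73.8 FPKM in wild-type, 46.7 to 64.7 in Bcl11bm/m and 63.3 to 78.8 in the Bcl11bfl/fl:Cd4-Cre libraries, and was not called in either mutant (limma adjusted p = 0.313 and 0.293). Gtf2ird2 was higher in both, by 0.65 in Bcl11bm/m (limma adjusted p = 0.0476) and by 1.18 in Bcl11bfl/fl:Cd4-Cre (limma adjusted p = 0.00557), from a wild-type mean of 3.44 FPKM. Of 17 tested genes of the Williams-Beuren block and family, 2 were higher and 2 lower in Bcl11bm/m, near the 9.92% and 7.39% of all genes, with Limk1, a kinase of the actin cytoskeleton, at 0.88 (limma adjusted p = 0.00733) and Stx1a, a syntaxin, at -1.46 (limma adjusted p = 0.0117), and their median of -0.11 stood beside -0.02 for all genes.

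Cldn4 was the one claudin at a sizeable level. Of 33 other claudin and tight junction genes in the table, 27 were below 1 FPKM in every library. Marveld2, the tricellulin gene, rose by 2.07 ± 0.14 in Bcl11bm/m (limma adjusted p = 4.19e-05). Cldn10, the other claudin that could be tested, was at -0.77 in Bcl11bm/m (limma adjusted p = 0.0571) and was called lower in Bcl11bfl/fl:Cd4-Cre (-0.73, limma adjusted p = 0.0435), at a wild-type mean of 1.61 FPKM. Thymic epithelial cells are known to express Cldn4 as well. The epithelial genes Krt5, Krt14, Foxn1, Prss16, Aire, Dll4, Pax1 and Trp63 were below 1 FPKM in every library. From the same list, Cdh1, Krt8 and Krt18 were too low to test. Their means were 0.183, 0.269 and 0.679 FPKM in wild-type, 1.59, 0.706 and 1.07 in Bcl11bm/m, and 0.28, 0.0799 and 0.213 in Bcl11bfl/fl:Cd4-Cre. Of 5 tested, 2 were higher (Ly75 and Tbata) and 1, Epcam, lower in Bcl11bm/m, and Epcam was lower in Bcl11bfl/fl:Cd4-Cre (shares of all genes 9.92% and 7.39% in Bcl11bm/m, and 9.86% lower in Bcl11bfl/fl:Cd4-Cre). Epcam, an epithelial adhesion molecule, had means of 3.04 FPKM in wild-type, 0.303 in Bcl11bm/m (limma adjusted p = 9.20e-04) and 0.786 in Bcl11bfl/fl:Cd4-Cre (limma adjusted p = 0.00814). The part of epithelial RNA in the Cldn4 values was not tested. The summed level of the 16 epithelial genes was 10.6 to 19.0 FPKM in wild-type, 22.5 to 29.5 in Bcl11bm/m and 10.4 to 13.9 in the Bcl11bfl/fl:Cd4-Cre libraries.

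E proteins, which induce Cldn4, were tested with their Id inhibitors. Of 6 genes tested with limma, 3 were higher and 0 lower in Bcl11bm/m, against 9.92% and 7.39% of all tested genes (1 lower at an unadjusted p under 0.05), and the median was 0.91, while 1 was higher and 1 lower in Bcl11bfl/fl:Cd4-Cre with a median of 0.06 (4.65% and 9.86% of all genes). Id2 rose by 2.73 ± 0.19 (limma adjusted p = 6.61e-05) in Bcl11bm/m and by 2.96 (limma adjusted p = 0.00442) in Bcl11bfl/fl:Cd4-Cre, Id1 rose by 1.65 (limma adjusted p = 0.0247) and Tcf12, which encodes the E protein HEB, by 0.85 (limma adjusted p = 0.0259) in Bcl11bm/m. Tcf3, which encodes E2A, fell by 0.48 in Bcl11bfl/fl:Cd4-Cre (limma adjusted p = 0.0309). The part of these genes in the Cldn4 values was not tested.

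Lrig1 was set beside its family and the receptors it acts on. Of 19 genes of the Lrig family, ErbB and related receptors, their ligands and other inhibitors, 12 were below 1 FPKM in every library, among them Egfr, Erbb2, Erbb4, Met and Ret. Erbb3 passed the filter at a mean of 1.13 FPKM over the 12 libraries, as did the ubiquitin ligase genes Cbl and Rnf41, and none of these 3 was called in either mutant. Of the 7 tested, 1 was higher and 1 lower in Bcl11bm/m (median 0.13; 9.92% and 7.39% of all genes), and 0 were higher (1 at an unadjusted p under 0.05 with limma) and 1 lower in Bcl11bfl/fl:Cd4-Cre (median 0.23; 4.65% and 9.86% of all genes). Errfi1, which encodes another inhibitor of ErbB receptors, fell in both mutants, by 2.45 ± 0.17 in Bcl11bm/m (limma adjusted p = 5.14e-05) and by 1.18 in Bcl11bfl/fl:Cd4-Cre (limma adjusted p = 0.00514). Its values were 5.51 to 8.35 FPKM in wild-type, 0.389 to 0.839 in Bcl11bm/m and 2.0 to 3.65 in the Bcl11bfl/fl:Cd4-Cre libraries, with no overlap between the 3 groups. Nrg4, a ligand of ErbB4, rose by 0.87 in Bcl11bm/m (limma adjusted p = 0.00215). Lrig2 was 3.12 to 4.73 FPKM in wild-type, 4.17 to 5.54 in Bcl11bfl/fl:Cd4-Cre and 4.92 to 6.40 in Bcl11bm/m libraries, and was not called in Bcl11bm/m (0.29, limma adjusted p = 0.252).

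Scn4b and Cldn4 were set beside other genes tied to positive selection. In all lists below, the shares of all tested genes are 9.92% higher and 7.39% lower in Bcl11bm/m, and 4.65% higher and 9.86% lower in Bcl11bfl/fl:Cd4-Cre. Of 26 tested, 2 were higher and 4 lower in Bcl11bm/m, and 1 was higher and 3 lower in Bcl11bfl/fl:Cd4-Cre, with medians of -0.02 and -0.24 beside -0.02 and -0.09 for all genes. Cd5, a negative regulator of receptor signalling that reports its strength, fell by 1.37 in Bcl11bm/m (limma adjusted p = 0.0122), Egr1, an immediate early gene of receptor signals, by 1.27 (limma adjusted p = 0.00852), and the receptor subunit Cd3e by 0.83 (limma adjusted p = 0.0270) and the adaptor Lat by 0.75 (limma adjusted p = 0.0369), whereas Plcg1 rose by 1.0 (limma adjusted p = 5.52e-04) and Ptprc by 0.43 (limma adjusted p = 0.0364). Egr1 also fell in Bcl11bfl/fl:Cd4-Cre cells, by 1.96 (limma adjusted p = 0.0439), as did Cd69 by 1.46 (limma adjusted p = 0.0356) and Themis by 0.47 (limma adjusted p = 0.0345), and Plcg1 rose by 0.63 (limma adjusted p = 0.0126). Across these 4 replicates, in order, Egr1 was 5.20, 35.6, 26.8 and 4.0 FPKM and Cd69 was 4.61, 14.8, 12.2 and 3.48 FPKM. Both were lowest in replicates 1 and 4, in which Scn4b was in the wild-type range.

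The cell type lists were read against those same shares of all tested genes. Of 18 pre-selection genes, 10 were lower and 1 higher in Bcl11bm/m (median -0.64), and 5 were lower in Bcl11bfl/fl:Cd4-Cre (median -0.49). Their summed level was 6070 to 8100 FPKM in wild-type, 4520 to 5210 in Bcl11bm/m and 4170 to 6490 in the Bcl11bfl/fl:Cd4-Cre libraries. Of 14 post-selection genes, 10 were higher and 1 lower in Bcl11bm/m (median 1.28), and 6 higher and 1 lower in Bcl11bfl/fl:Cd4-Cre (median 0.34), with sums of 371 to 667, 1180 to 1400 and 521 to 773 FPKM. All 3 tested NK cell genes were higher in Bcl11bm/m, and 1 was higher and 1 lower in Bcl11bfl/fl:Cd4-Cre. The NK list summed to 18.6 to 71.2 FPKM in wild-type, 216 to 417 in Bcl11bm/m and 67.8 to 198 in the Bcl11bfl/fl:Cd4-Cre libraries. Most of it was Gzma (means of 36.3, 276 and 110 FPKM), while Ncr1, Gzmb, Eomes and Klrk1 were below 1 FPKM in every library. In the same order, means were 0.155, 4.22 and 7.34 for Klrb1c, 0.109, 0.305 and 2.56 for Il2rb, and 0, 0.306 and 1.73 for Klrd1. They were 0.0822, 0.532 and 1.13 for Nkg7, and 2.45, 5.12 and 0.946 for Prf1. Of 8 tested myeloid genes 3 were higher in Bcl11bm/m and 2 lower in Bcl11bfl/fl:Cd4-Cre, and the list summed to 12.9 to 21.6, 35.9 to 136 and 7.09 to 56.8 FPKM. Of 4 B cell genes tested with limma 0 were called in Bcl11bm/m (2 at an unadjusted p under 0.05) and 1 was higher in Bcl11bfl/fl:Cd4-Cre. Of 3 erythroid genes 0 were called in either mutant (0 and 1 at an unadjusted p under 0.05). Both tested stromal genes (Pecam1 and Pdgfrb) were higher in both mutants while Cdh5, Kdr and the collagen genes were below 1 FPKM. The part of these shifts in the 5 genes was not tested. In such sorted pools, fewer cells that express a gene and less RNA of it per cell cannot be told apart.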

How the data were processed

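The 12 libraries of sorted pre-selection thymocytes were taken from a deposited table of FPKM (fragments per kilobase of transcript, scaled to sequencing depth) for 23234 genes. The authors mapped reads with TopHat2 and computed these FPKM values per gene and library with Cufflinks 2.1.1 on the iGenome annotation, and the processing notes name mm9. No further scaling between libraries is stated. No total counts accompany the table, so fragments per library were estimated from the steps between low FPKM values of 3777 genes, and these estimates may be off by a whole factor.

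The 5 genes and the gene lists were chosen with earlier results of these data known. Values were compared as log2(FPKM + 1), which understates the change of low genes. Genes were kept at a mean of 1 FPKM or more in the 12 libraries (10780 genes) and fitted with limma 3.58.1 (R 4.3.3, moderated with a trend). Each fit held 2 groups, tests were two-sided, and p-values were adjusted by Benjamini-Hochberg over all genes tested, with a threshold of 0.05. The fit was also run on simulated data, whose outcome is not reported here, so nothing is drawn from it. Each of the 5 genes was also compared between Bcl11bfl/fl:Cd4-Cre and wild-type by an exact permutation test. GENCODE vM1 on NCBIM37 gave positions (21853 of the table's symbols were found), and RefSeq windows gave upstream sequences, placed on NCBIM37 by exact match. Other steps ran in Python 3.11.15 (numpy 2.4.6, pandas 2.3.3; figures with matplotlib 3.10.9). Named besides the 5 genes were list members past the threshold (up to 6 per list and comparison by size), family members that pass the filter, the 3 genes with the highest Pearson correlation to each, the 5 genes ranked next, the 3 nearest annotated genes on each side, and Bcl11b and Zbtb7b. The alternatives were leaving out each replicate, a replicate block, 1 fit of all 3 groups, robust empirical Bayes, library quality weights, quantile normalization, median-ratio scaling, no filter, a filter at 5 FPKM, a pseudocount of 0.1, and Spearman correlation. Leaving out wild-type replicates 2 and 3 together, and likeness over 9 libraries, were added after the data were seen. Results that rest on certain genes of the lists are not reported here.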

Additional observations from a re-analysis of the deposited data

How the results depend on the processing

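In Bcl11bfl/fl:Cd4-Cre against wild-type, the direction of all 5 genes held under every alternative run except for Cldn4, which came to 0.07 with library quality weights, but sizes moved. Larger differences came without wild-type replicates 2 and 3 for Lrig1 (-1.54) and Cldn4 (-0.74), and with a pseudocount of 0.1 for Scn4b (-2.96). The quality weights gave -0.12 for Lrig1 and -1.02 for Scn4b, and leaving out 1 replicate gave -1.07 to -0.40 for Lrig1, -0.52 to -0.11 for Cldn4 and -2.19 to -1.40 for Scn4b. The 2210010C17Rik call was lost without a filter (-1.68), with the replicate block (-1.55) and without wild-type replicates 2 and 3 (-1.73), and leaving out a single replicate gave -1.95 to -1.23. Over its 19 alternatives the limma adjusted p ran from 0.00827 to 0.12. Gtf2ird1 passed the threshold with all 3 groups in a single fit (-0.70), library quality weights (-0.64) and robust empirical Bayes (-0.70), and leaving out a replicate gave -0.90 to -0.47. Scn4b passed with the replicate block (-1.54), and has no value at a mean of at least 5 FPKM, since its own mean is 4.52. The replicate numbers were read from the sample titles, and whether same-numbered libraries share a litter or batch was not tested. Deviations of same-numbered mutant and wild-type libraries from their group means correlated at -0.211 to -0.006 for Bcl11bm/m and -0.088 to 0.152 for Bcl11bfl/fl:Cd4-Cre. With different numbers they ran from -0.18 to 0.186 and from -0.146 to 0.143. In Bcl11bfl/fl:Cd4-Cre the replicate block gave an SE of 0.24 for Scn4b, 0.26 for Lrig1 and 0.18 for Cldn4, against 0.65, 0.60 and 0.36. For 2210010C17Rik it gave 0.37 against 0.45, and for Gtf2ird1 0.20 against 0.22. The number of genes called in Bcl11bfl/fl:Cd4-Cre, 1564, came to 456 with the replicate block, 3176 with library quality weights and 482 without wild-type replicates 2 and 3, and to 700 to 2678 when a replicate was left out. In Bcl11bm/m a pseudocount of 0.1 gave -4.52 for 2210010C17Rik, -4.88 for Cldn4, -4.23 for Lrig1, -3.56 for Gtf2ird1 and -5.58 for Scn4b. Lrig1 in Bcl11bm/m also came to -2.4 with the replicate block and -4.06 without wild-type replicates 2 and 3. Of the 3 genes most like each of the 5, Spearman correlation kept 1 for 2210010C17Rik, 1 for Cldn4 and 0 for the rest, and the 9 libraries outside the Bcl11bm/m group kept 0 for each. The causes were not tested. Depth limits 2210010C17Rik, Cldn4 and Scn4b in Bcl11bm/m libraries, where a few fragments set the value.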
